A study of Mus musculus with 16 samples.

Results

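The nuclear genes of oxidative phosphorylation were followed in chromatin accessibility libraries of retinal ganglion cells. These neurons, whose axons form the optic nerve, were sorted from eyes of female mice in the course of EAE (experimental autoimmune encephalomyelitis), in which an immune attack on myelin can reach that nerve. Members were the nuclear intervals of the deposited table whose names begin with Nduf, Uqcr, Uqcc, Cox4, Cox5, Cox6, Cox7, Cox8 or Atp5, plus Sdha, Sdhb, Sdhc, Sdhd and Cyc1. The rule used names alone and no measured value. It gave 96 of 37255 intervals after 2 names marked as pseudogenes were dropped: 44 for complex I, 4 for complex II, 12 for complex III, 20 for complex IV and 16 for complex V. Ndufa4 and Ndufa4l2 were placed with complex IV and Atp5sl with the complex I assembly factors, whatever their names. The members lay on 19 chromosomes, 3 of them on the X.

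In oxidative phosphorylation, complexes I and II pass electrons from NADH and succinate to coenzyme Q, complex III passes them on to cytochrome c, and complex IV to oxygen. Complexes I, III and IV pump protons across the inner mitochondrial membrane, and complex V, the ATP synthase, uses the return of the protons to make ATP. Complex II is encoded in the nucleus alone, whereas the others also hold subunits made from mitochondrial DNA. Ganglion cells send unmyelinated axons across the retina and are known to depend on mitochondrial ATP, and inherited complex I defects cause optic neuropathy. NRF1, the ETS factor GABP, YY1, SP1 and the oestrogen-related receptors are textbook regulators of these nuclear genes.

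ATAC-seq, in which a transposase inserts adapters into accessible DNA, gave 16 libraries. The naive group had control treatment (n = 5), and EAE mice were sampled before symptoms (presymptomatic, n = 4), at onset (n = 3) and at peak disease (n = 4). EAE was induced at 7 to 8 weeks of age, and each library started from about 15 k to 50 k sorted cells. The sources used here do not give the strain or the immunising agent. The labels do not say that libraries came from separate animals, so every p-value measures the spread between libraries, which may be technical in part. A lower value in such a bulk sample can mean fewer cells of a type or less signal per cell, which cannot be told apart. Libraries held 7.42 M to 65.2 M reads, of which 1.58 M to 15.1 M fell in nuclear intervals and 1209 to 11597 in the members. Mitochondrial DNA took 8.36% to 64.7% of interval reads, with the lowest share in onset replicate 3, which also carried a label number out of stage order, as did presymptomatic replicate 4. Ganglion cell markers had a median density of 1.10 (reads per kb of counted interval and per M of nuclear interval reads, averaged over the 16 libraries), against 1.17 for rod markers and 1.15 for amacrine and horizontal markers, and no marker of these lists was at 0 in every library.

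What an interval covers decides what these data can show. The deposited RPKM values fit a counted length equal to the difference between a gene's span and 2000 bp, as if 1000 bp had been removed at each end. For 94 of the 96 members the deposited start therefore lay outside the counted window, and the values describe the gene body. The exceptions were Uqcc3 (920 bp, chr19:8880014-8880933, minus strand), which encodes an assembly factor of complex III, and Cox6a2 (932 bp, chr7:128205435-128206366, minus strand), which encodes the muscle form of a complex IV subunit. For another 8 members, with spans of at least 1000 bp and under 2000 bp, the counted stretch is taken to be the middle of the gene. For all spans under 2000 bp the place of the window is an assumption, since only its length follows from the deposited values, and it bears on Uqcc3, Cox6a2, Cox6b2, Atp5k and Cox8c. The table names no genome build, and coordinates are printed as deposited. Of the 79 members with a RefSeq promoter on GRCm38.p6, all had the same chromosome and strand there, and 75 had a start within 100 bp of the deposited one (median distance 0 bp). The largest distance, 3507 bp, was that of Atp5d, whose RefSeq start lies inside the counted window, which was so for no other member with a RefSeq start except Uqcc3. In 5 members, Atp5b, Atp5d, Cox4i2, Ndufa10 and Sdhc, the window also held the start of another gene. Counting these, the windows of 8 members overlapped another gene, and reads shared with it cannot be told apart.

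Promoter sequences come from RefSeq on GRCm38.p6 and are shown for the 5 members of highest density and for Ndufc2, which had the smallest p at peak. Each line gives the 250 bases before the start, 5′ to 3′ on the gene's strand, with matches to the NRF1, NRF1 core, ETS, YY1, SP1 or ERR letters, spelled out further on, in capitals. Uqcc3 lies at chr19:8880934-8881183, Cox6b2 at chr7:4753095-4753344, Atp5k at chr5:108434400-108434649, Cox6a1 at chr5:115348959-115349208, all on the minus strand. On the plus strand lie Atp5d at chr10:80142025-80142274, the first of its 2 RefSeq promoters, and Ndufc2 at chr7:97399753-97400002.
Uqcc3: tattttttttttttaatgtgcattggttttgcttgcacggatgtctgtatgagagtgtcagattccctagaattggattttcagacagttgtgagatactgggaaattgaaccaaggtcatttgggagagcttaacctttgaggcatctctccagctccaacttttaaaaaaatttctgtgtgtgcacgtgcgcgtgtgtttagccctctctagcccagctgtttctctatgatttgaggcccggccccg
Cox6b2: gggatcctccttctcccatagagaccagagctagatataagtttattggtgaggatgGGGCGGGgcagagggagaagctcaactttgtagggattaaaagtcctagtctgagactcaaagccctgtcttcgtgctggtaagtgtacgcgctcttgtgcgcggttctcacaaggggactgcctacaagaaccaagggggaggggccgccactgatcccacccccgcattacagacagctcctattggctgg
Atp5d: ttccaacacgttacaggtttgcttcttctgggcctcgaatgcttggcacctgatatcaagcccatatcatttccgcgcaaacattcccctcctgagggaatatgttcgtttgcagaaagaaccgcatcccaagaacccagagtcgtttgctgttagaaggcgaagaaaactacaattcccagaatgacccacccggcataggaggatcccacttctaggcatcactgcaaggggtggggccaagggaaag
Atp5k: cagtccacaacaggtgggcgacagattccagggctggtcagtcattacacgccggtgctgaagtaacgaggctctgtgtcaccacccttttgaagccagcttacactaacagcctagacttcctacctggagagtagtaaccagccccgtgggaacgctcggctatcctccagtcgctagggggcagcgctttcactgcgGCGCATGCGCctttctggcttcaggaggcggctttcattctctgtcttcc
Cox6a1: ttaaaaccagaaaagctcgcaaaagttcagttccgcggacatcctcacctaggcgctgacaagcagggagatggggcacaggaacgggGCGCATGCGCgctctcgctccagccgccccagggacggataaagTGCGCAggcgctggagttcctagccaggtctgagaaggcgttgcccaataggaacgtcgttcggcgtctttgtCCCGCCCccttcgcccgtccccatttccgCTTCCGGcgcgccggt
Ndufc2: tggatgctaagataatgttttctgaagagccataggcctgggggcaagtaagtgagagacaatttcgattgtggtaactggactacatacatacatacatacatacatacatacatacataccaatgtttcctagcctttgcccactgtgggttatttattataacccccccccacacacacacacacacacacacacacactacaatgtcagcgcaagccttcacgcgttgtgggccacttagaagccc
Atp5k and Cox6a1 each carried a palindrome that matches the NRF1 letters on both strands, and Cox6a1 also held an ETS match, an SP1 match and a separate NRF1 core. Cox6b2 held 1 SP1 match. Uqcc3, Atp5d and Ndufc2 held none of the letters searched in these 250 bases.

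Across 300-base windows, from 250 bases before to 50 after the start, the letters of NRF1, ETS factors and YY1 were in a larger share of member windows than of promoters at large, while the SP1 and ERR shares were less far apart against their intervals. The NRF1 letters GCGCATGC were in 12 of 85 member windows, or 14.1% (95% Wilson interval 8.26% to 23.1%), and in 2.71% of 32851 windows of all genes. Those 12 windows belonged to Atp5g2, Atp5k, Atp5l, Cox6a1, Ndufa6, Ndufa8, Ndufa11, Ndufaf4, Ndufaf5, Sdhb, Uqcr11 and Uqcrc1, so at least 1 gene of each complex was among them. The shorter NRF1 core TGCGCA, which can overlap the longer letters, was in 24.7% (16.8% to 34.8%) against 7.76%. ETS letters CCGGAAG were in 20% (12.9% to 29.7%) against 8.86%, and YY1 letters ATGGCGGC in 10.6% (5.67% to 18.9%) against 2.24%. The 85 windows came from 79 genes, as some genes had 2 RefSeq starts whose windows can overlap. The 9 windows with YY1 letters came from 7 genes, and the intervals take windows as independent. SP1 letters GGGCGGG were in 35.3% (26.0% to 45.9%) against 25.6%. The ERR letters TCAAGGTCA were in 2 member windows, or 2.35% (0.648% to 8.18%), against 0.423%. Both strands were searched. On the gene's own strand alone, the ETS share was 7.06% against 4.77% and the SP1 share 20% against 15.4%. The ERR letters were there in 0 of 85 windows (interval 0% to 4.32%) against 0.240%. For ETS, SP1 and ERR the interval of the member share on that strand held the share of all windows. A match is a description of letters, not of binding. Member windows were also richer in GC (median 57.7% against 52.7%) and in CpG (median 20 against 7), and the part of this in the shares was not tested. A match to at least 1 of the 6 motifs was in 67.1% of member windows and in 35.9% of all windows.

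**Figure D1:**
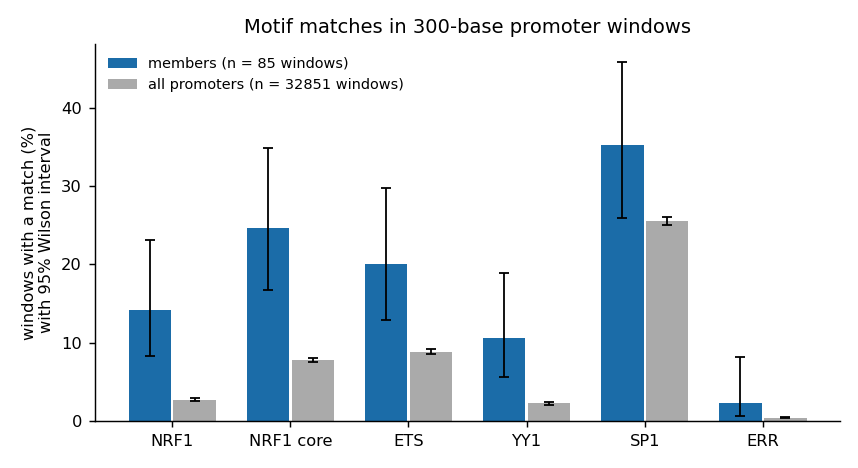
Share of 300-base promoter windows with a match on either strand, as a percentage on the vertical axis, for each of 6 motifs. Blue bars are the 85 member windows and grey bars the 32851 windows of all genes, with 95% Wilson intervals, and the member bar is the taller of the pair for every motif.

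The members also sat more often back to back with another gene. For 30 of 96 members (31.25%) another gene on the opposite strand started within 1000 bp upstream, against 11.6% of 37242 nuclear intervals, with median distances of 82 bp and 119 bp. Among the closest pairs were Ndufs1 and Eef1b2 at 9 bp, Ndufa7 and Rps28 at 10 bp, Ndufs3 and Kbtbd4 at 19 bp, and Sdhd and Timm8b at 52 bp. Timm8b encodes a mitochondrial import chaperone, and Rps28 a ribosomal protein. These shared start regions lay outside the counted windows of the members named here.

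Within the counted windows, accessibility of the members was close to that of genes in general. The median density over 85 members with at least 500 bp counted was 0.580 on that scale, against 0.626 over 35258 intervals. The other 11 members, such as Cox7c, Cox5b and Cyc1, had less than 500 bp counted, and no density was computed for them. By complex the medians were 0.539 for I, 0.650 for II, 0.708 for III, 0.671 for IV and 0.540 for V. The related lists lay in the same range: 0.533 for the tricarboxylic acid cycle, 0.536 for electron carriers and coenzyme Q synthesis, 0.519 for assembly factors outside the name rule and 0.567 for regulators of mitochondrial genes. Lymphocyte markers had a median of 0.380.

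The densities of the core subunits spread around that middle. Ndufs1, a complex I core subunit that carries iron-sulphur clusters, stood at 0.417 ± 0.166 (SD, n = 16 libraries). Among complex II genes, the flavoprotein Sdha had 0.721 ± 0.231, the iron-sulphur protein Sdhb 0.677 ± 0.236, and the membrane anchors Sdhd and Sdhc 0.623 ± 0.402 and 0.368 ± 0.162. The complex III core protein Uqcrc1 had 0.409 ± 0.185 and the Rieske protein Uqcrfs1 0.564 ± 0.299. Cox5a of complex IV had 0.70 ± 0.336, and the catalytic head of the ATP synthase gave 0.580 ± 0.325 for Atp5a1 and 0.404 ± 0.214 for Atp5b. These SDs cover much of the distance between neighbours in that order. The c-ring genes, which encode the same mature protein, gave 0.787 ± 0.591 for Atp5g1, 0.472 ± 0.241 for Atp5g2 and 0.325 ± 0.557 for Atp5g3, on mean counts of 4.63, 21.6 and 1.69 reads per library.

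A group of 3 members stood far above the rest. Cox6b2, the testis-enriched form of a complex IV subunit, had the highest density, 8.62 ± 4.78, with its own start 303 bp from the assumed window. Uqcc3 followed with 7.96 ± 2.76, its start being counted. Atp5d, which encodes a central stalk subunit of the ATP synthase, had 5.23 ± 2.23, and both its own RefSeq start and the start of another gene, Cbarp, lie in its window, so reads of these cannot be told apart. Next came Atp5k at 1.51 ± 0.656, a membrane subunit of the ATP synthase with its start 126 bp from the assumed window, and Cox6a1 at 1.19 ± 0.686. A start in or near the window did not go with a high density in every case: Cox6a2, whose start is counted, had 0.787 ± 0.946, and Cox8c, a testis-enriched complex IV subunit with its start 229 bp from the assumed window, had the lowest density, 0.227 ± 0.311. Next above it were Ndufs8 at 0.242 ± 0.234, Ndufv1 at 0.248 ± 0.200, Ndufa3 at 0.287 ± 0.518 and Cox7a2 at 0.295 ± 0.190. The 5 lowest had mean counts of at most 5.06 reads per library, so that their order is not resolved.

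**Figure D2:**
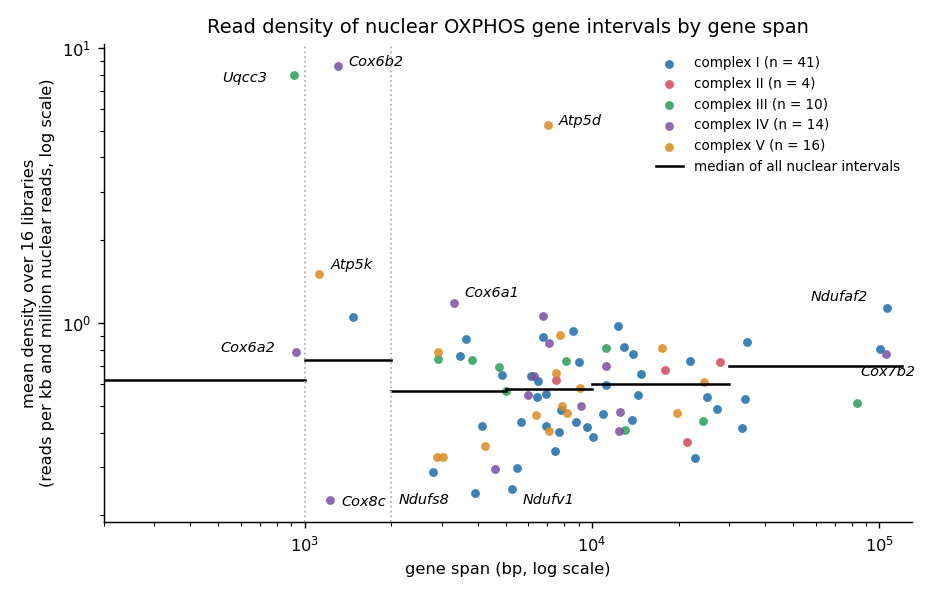
Mean density over the 16 libraries (reads per kb of counted interval and per M of nuclear reads, log scale) against gene span (bp, log scale) for the 85 members with a density, coloured by complex. Black lines are medians of all nuclear intervals in the same span class, and dotted lines mark 1000 and 2000 bp. Cox6b2, Uqcc3 and Atp5d stand between 5.23 and 8.62, and the other members at or under 1.51.

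Several complex IV subunits exist as a general form and a tissue-restricted form. Cox6b2 was denser than the general Cox6b1 in 16 of 16 libraries, with means of 8.62 and 0.498, though only the window of Cox6b2 came close to its start. Cox4i1 and the hypoxia-linked Cox4i2 gave 0.546 and 0.476, Cox4i1 being higher in 9 libraries and Cox4i2 in 7. The window of Cox4i2 overlapped Bcl2l1 and held the start of Gm32057, so its reads cannot all be assigned to Cox4i2. Cox6a1 and Cox6a2 gave 1.19 and 0.787, Cox6a1 being higher in 10 libraries. The assumed window of Cox6a2 overlapped Itgad and held the gene's own start, unlike that of Cox6a1. It drew 81 reads over the 16 libraries. Cox7b exceeded the testis-enriched Cox7b2 in 11 libraries, with 1.06 and 0.772. In these 3 pairs the order changed from library to library. The pairs with Cox7a1, Cox8a or Ndufa4l2 had a window under 500 bp and were not compared.

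Disease stage was tested with edgeR on 29902 intervals, among them 74 members: 36 of complex I, 4 of II, 9 of III, 12 of IV and 13 of V. The 22 members below the count filter had mean counts between 0.0625 and 5.44 reads, and their windows were short (median 508.5 bp, against 6719 bp for those tested). In edgeR's quasi-likelihood test no member was called at an adjusted p of 0.05 in any of the 6 comparisons, and the background was 0% of all tested intervals in each. An F test over the 3 comparisons with naive called 0 members too (0% of all), and 2 of 74 had an unadjusted p under 0.05, against 3.16% of all. DESeq2 called 0 members in each comparison, and of all 29902 intervals 1 at peak against naive, 1 at onset against presymptomatic and 5 at peak against onset. Limma's voom called 0 members and 0 of all intervals. A fold change is printed below as log2, first group minus second, with its standard error. The median standard error of a member was 0.52 for presymptomatic, 0.56 for onset and 0.53 for peak against naive. For the 22 members with a mean count of 50 or more it was 0.34, 0.36 and 0.34, so a change below about 2 of those errors could not be told from none.

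Presymptomatic and naive libraries did not differ detectably in these genes. Of 74 members 31 had a positive and 43 a negative log2 fold change, with a median of -0.08 against -0.06 over all tested intervals. None had an unadjusted p under 0.05, where 1.16% of all intervals did. None had presymptomatic values all above or all below the naive ones, where 0.365% and 0.482% of all intervals did. The medians were -0.10 in complex I, -0.04 in II, -0.17 in III, -0.11 in IV and 0.07 in V. The members with the smallest p on either side were Ndufc2 (0.77 ± 0.56) and Ndufaf7 (-0.70 ± 0.52) in complex I, Uqcr11 (1.19 ± 0.92) and Uqcrfs1 (-1.07 ± 0.70) in complex III, and Cox6b1 (0.71 ± 0.56) and Cox5a (-0.78 ± 0.45) in complex IV. In complex II they were Sdhc (0.12 ± 0.43) and Sdhd (-0.31 ± 0.55), and in complex V Atp5k on the lower side (-0.78 ± 0.70). On the higher side of complex V stood Atp5h, a peripheral stalk subunit, with 11, 20, 4 and 6 reads in the presymptomatic libraries and 1, 10, 4, 4 and 0 in the naive ones, too few to compare.

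At onset the balance was slightly positive. Of 74 members 45 were on the higher and 29 on the lower side of naive, with a median of 0.09 against -0.01 over all intervals. In complex V 12 of 13 tested members were on the higher side (median 0.17), where 48.6% of all intervals were. Among them were all 4 tested genes of the F1 head and central stalk. Of these, Atp5a1 changed sign under 7 of 19 alternative runs, and Atp5b, Atp5c1 and Atp5d under none. The 3 membrane accessory subunits of complex V, also on the higher side, had fold changes of 0.02 to 0.07. Their counts were too low to show closeness to naive. Atp5j2 had 9, 5 and 68 reads at onset, and Atp5k changed sign under 4 of 18 alternative runs. Complex I split 19 to 17 (median 0.04), II 3 to 1 (0.11), III 5 to 4 (0.18) and IV 6 to 6 (0.03). Without onset replicate 3 the median over all members was -0.08, so its sign turned on that library. The medians without it were -0.14 in complex I, -0.12 in II, 0.06 in III, -0.22 in IV and 0.09 in V. Rod markers moved with this comparison: 19 of 19 tested were on the higher side (median 1.04), with summed values of 479 to 838 CPM at onset and 287 to 436 in naive libraries. Their part in the members' values was not tested.

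Of 74 members 1 had onset values all above the naive ones (1.6% of all intervals did), and none had them all below (0.94% of all did). An unadjusted p under 0.05 against naive was found for 1 of 74, where 4.95% of all intervals had one. The member of complex II with the smallest p on the higher side was Sdhb, its iron-sulphur protein. In CPM (counts per M of interval reads, TMM-scaled), onset libraries had 7.02, 5.89 and 8.86 of Sdhb and naive libraries 7.47, 4.79, 3.52, 3.90 and 5.75. Presymptomatic libraries had 4.00, 4.34, 3.80 and 6.97 and peak libraries 7.07, 6.98, 4.49 and 3.73. All groups overlapped, and onset replicate 3 was the highest of the 16 libraries. The fold change against naive was 0.52 ± 0.35 (edgeR, unadjusted p = 0.146, adjusted p = 0.980), which did not pass.

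The other members with the smallest p at onset did not pass either. On the higher side they were Uqcc3 (0.64 ± 0.37), Cox6b2 (0.75 ± 0.49) and Atp5d (0.53 ± 0.36), and on the lower side Ndufb6 (-1.31 ± 0.68), Sdha (-0.17 ± 0.34), Uqcrc2 (-0.29 ± 0.36), Cox7b (-0.88 ± 0.60) and Atp5j (-0.03 ± 0.50). Ndufb6, an accessory subunit of the membrane arm of complex I, had 0, 0.439 and 1.42 CPM at onset and between 0.948 and 2.16 in naive libraries.

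**Figure D3:**
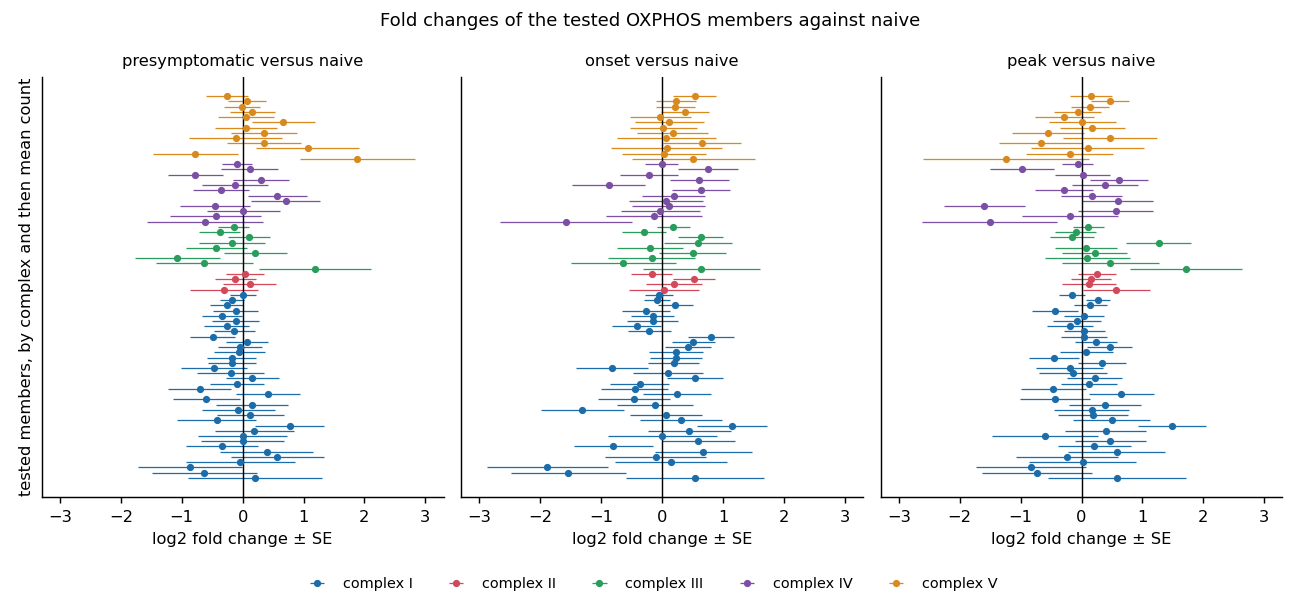
Log2 fold changes against naive (horizontal axis, with standard errors as bars) for the 74 tested members, ordered by complex and then by mean count (each complex's best covered genes at its top). In the onset panel 12 of 13 complex V points lie right of 0, against 48.6% of all tested intervals. The bars widen toward the low counts.

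The 3 windows of highest density were each highest at onset on average. Uqcc3 had 7.52, 6.08 and 5.28 CPM at onset, 3.73, 5.31, 2.83, 2.42 and 5.67 in naive, 4.37, 3.62, 4.76 and 4.65 in presymptomatic and 2.69, 3.13, 2.89 and 6.21 in peak libraries. Cox6b2 had 6.90, 4.58 and 3.90 at onset, 2.67, 4.42, 1.91, 0.632 and 5.196 in naive, 2.85, 2.39, 4.01 and 3.95 in presymptomatic and 0.566, 1.57, 1.28 and 3.11 in peak libraries. Atp5d had 16.9, 16.6 and 21.3 at onset, 12.1, 12.4, 5.89, 7.58 and 25.3 in naive, 11.2, 8.68, 12.4 and 10.00 in presymptomatic and 13.6, 19.4, 6.41 and 17.4 in peak libraries. In all 3 the onset and naive ranges overlapped. The share of nuclear interval reads in olfactory and vomeronasal receptor genes (receptor share) was lowest at onset on average, at 0.241% ± 0.0419 (SD). It was 0.360% ± 0.174 in naive, 0.365% ± 0.0402 in presymptomatic and 0.335% ± 0.118 in peak libraries. Its part in the values of these windows was not tested. Cox6b2 differed most between onset and peak. Its peak values were all below its onset ones, and the share of all intervals with such a gap was not computed. Its fold change was -1.73 ± 0.57 (edgeR, unadjusted p = 0.00504, adjusted p = 0.737). With Cox6c it was 1 of 2 members of 74 at an unadjusted p under 0.05 in that comparison, against 6.65% of all intervals. Against presymptomatic libraries, 2 of 74 members were below that threshold at onset, where 4.13% of all were, among them Atp5d (0.79 ± 0.38, edgeR, unadjusted p = 0.0481, adjusted p = 1.00).

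At peak 47 of 74 members were on the higher and 27 on the lower side of naive, with a median of 0.11 against -0.03 over all intervals. Of all intervals 47.1% were on the higher side. All 4 complex II genes were on the higher side (median 0.20), complex I split 23 to 13 (0.10), III 7 to 2 (0.11), IV 6 to 6 (-0.02) and V 7 to 6 (0.01). Without peak replicate 1 the median over all members was -0.08, that of complex I -0.13, of II 0.01, of III 0.08, of IV 0.01 and of V -0.18. Ganglion cell markers were on the higher side in 19 of 20 (median 0.26), with summed values of 390 to 628 CPM at peak and 325 to 502 in naive libraries, and their part in the members' values was not tested. An unadjusted p under 0.05 was found for 3 members of 74, Ndufc2, Uqcc2 and Cox6c, against 3.61% of all intervals. No member had peak values all above or all below the naive ones, where 0.502% and 0.475% of all intervals did.

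Ndufc2, an accessory subunit of the complex I membrane arm, had 3.11, 1.14, 1.92 and 2.48 CPM at peak and 0.640, 1.23, 0.612, 0.421 and 0.787 in naive libraries. All but the lowest peak library lay above every naive one. Presymptomatic libraries had 0.910, 1.59, 0.679 and 2.32 and onset libraries 0.752, 1.94 and 2.30. The fold change at peak was 1.49 ± 0.56 (edgeR, unadjusted p = 0.0134, adjusted p = 1.00), resting on 8 to 22 reads in peak and 4 to 36 in naive libraries.

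Uqcc2, an assembly factor of complex III, had 6.79, 13.0, 0.321 and 5.90 CPM at peak and 4.80, 3.08, 2.22, 1.26 and 2.20 in naive libraries. The peak group held both the highest and the lowest of all 16 libraries. Its fold change was 1.26 ± 0.53 (edgeR, unadjusted p = 0.0233, adjusted p = 1.00), and 0.66 ± 0.57 without peak replicate 2, which had 91 reads against 48, 2 and 19 in the others. Cox6c, a structural subunit of complex IV, went the other way, with 0.849, 0.285, 0.641 and 0.621 CPM at peak and 0.533, 1.61, 1.30, 4.00 and 1.73 in naive libraries. The ranges overlapped through naive replicate 1. Its fold change was -1.60 ± 0.66 (edgeR, unadjusted p = 0.0224, adjusted p = 1.00), on 2 to 6 reads per peak library.

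**Figure D4:**
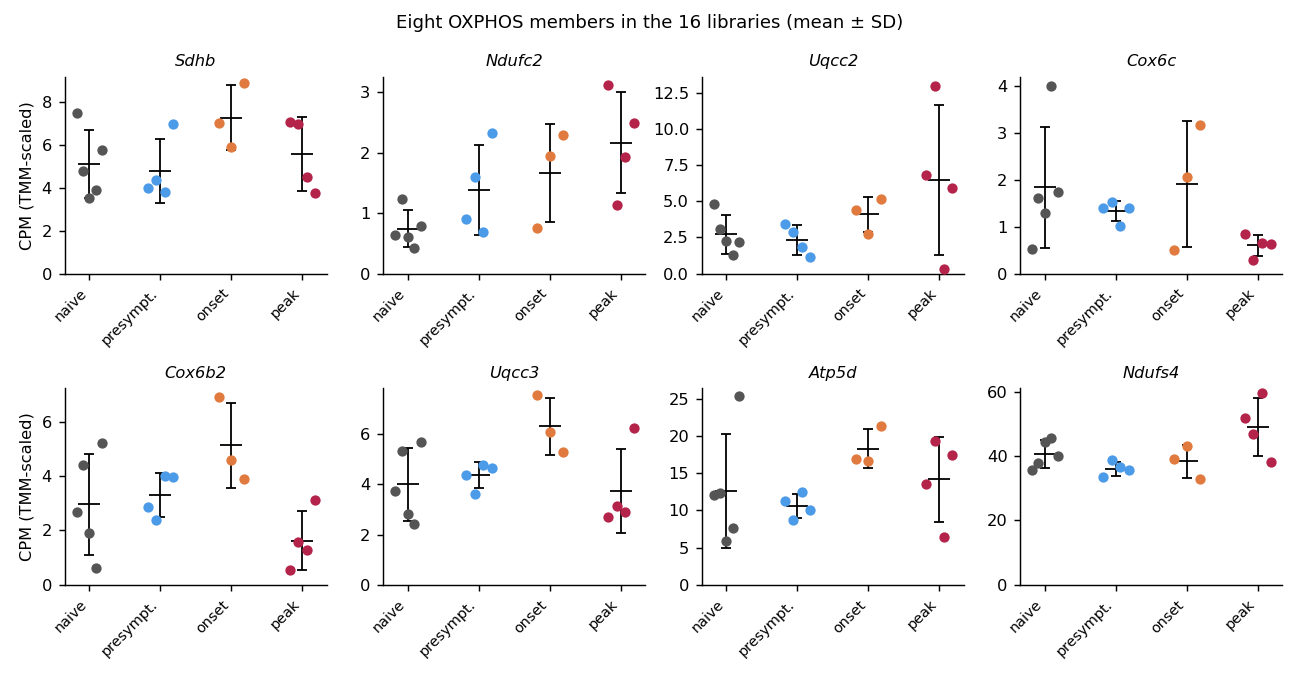
TMM-scaled CPM of 8 members in each of the 16 libraries, by stage, with mean and SD. The 3 onset points of Cox6b2, between 3.90 and 6.90, lie above all 4 peak points, and the share of all intervals with such a gap was not computed. Uqcc2 at peak runs from 0.321 to 13.0.

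The remaining members with the smallest p at peak were Ndufa10 (-0.44 ± 0.38), Sdhd (0.57 ± 0.55), Uqcc3 (-0.16 ± 0.37), Cox4i2 (0.62 ± 0.47), Atp5c1 (0.47 ± 0.31) and Atp5b (-0.67 ± 0.68). No complex II gene was on the lower side. Against presymptomatic libraries, 55 of 74 members were on the higher side at peak, where 53.3% of all intervals were (median 0.19 against 0.03). An unadjusted p under 0.05 (edgeR) was found for 3 members, against 3.41% of all intervals: Uqcc2, Atp5h and Ndufs4. Without peak replicate 1 that median was 0.0022. The comparisons at peak with naive and with presymptomatic libraries share the peak libraries.

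Ndufs4, a complex I accessory subunit whose loss causes a Leigh-like disease, was among the best covered members, with 123 to 1175 reads. It had 51.9, 46.7, 59.7 and 38.2 CPM at peak, 33.4, 38.7, 36.5 and 35.6 in presymptomatic, 35.5, 37.96, 44.4, 45.6 and 39.9 in naive and 39.1, 43.0 and 33.0 in onset libraries. The highest presymptomatic value lay just above the lowest peak value. The fold change against presymptomatic was 0.45 ± 0.21 (edgeR, unadjusted p = 0.0394, adjusted p = 0.999), and against naive 0.28 ± 0.20. The similarly long genes Ndufaf2, an assembly factor of complex I, and Cox7b2 gave -0.16 ± 0.21 and -0.07 ± 0.25 at peak against naive. At onset they gave -0.04 ± 0.23 and -0.01 ± 0.27, so these well covered gene bodies stayed within about 1 standard error of naive.

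Over whole libraries, the members drew a similar share of nuclear reads at every stage. It was 0.0721% ± 0.00745 (SD, n = 5) in naive, 0.0704% ± 0.00578 (n = 4) in presymptomatic, 0.0797% ± 0.00859 (n = 3) in onset and 0.0789% ± 0.0124 (n = 4) in peak libraries. The highest shares were those of peak replicate 1 (0.0958%) and onset replicate 3 (0.0894%), and the ranges of all groups overlapped. The median log2 CPM of the tested members was 1.13 ± 0.17 in naive, 1.19 ± 0.13 in presymptomatic, 1.28 ± 0.20 in onset and 1.29 ± 0.25 in peak libraries. By complex the largest step against naive was that of complex III at peak, 1.71 ± 0.33 against 1.24 ± 0.26, where the ranges 1.45 to 2.17 and 0.90 to 1.64 overlapped.

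**Figure D5:**
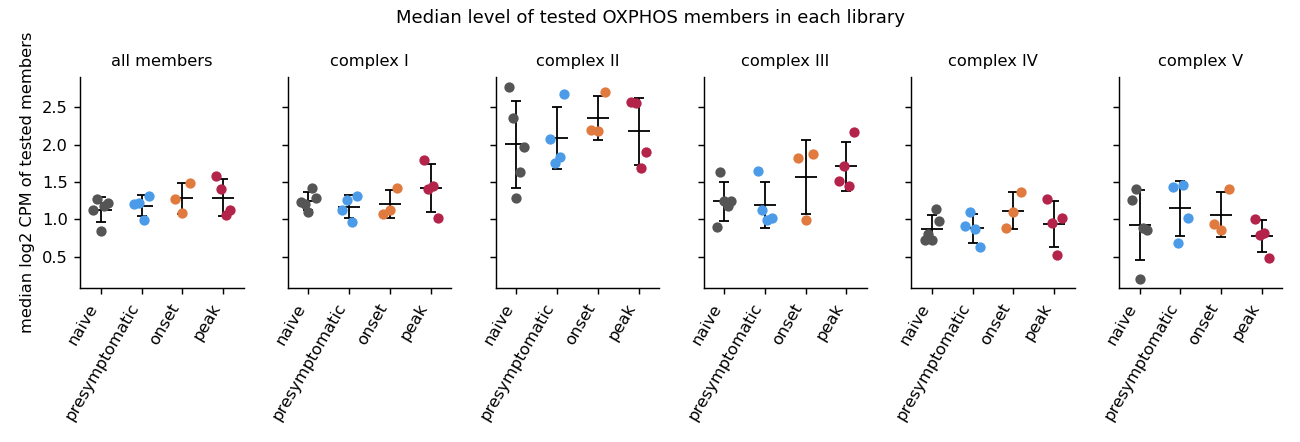
Median log2 CPM of the tested members in each library, for all 74 members and for each complex, with group mean and SD as bars. Points of different stages overlap in every panel, and complex II, with 4 genes, runs from 1.28 to 2.78 and is the highest complex in all libraries but peak replicate 4.

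Genes that work with the complexes were read from lists outside the name rule. None of their tested genes was called by edgeR in the 3 comparisons with naive. Among 36 assembly factors, 11 were on the higher side before symptoms (median -0.21), 24 at onset (0.13) and 17 at peak (-0.05). The smallest p at peak was that of Cox11, a copper chaperone of complex IV (-1.99 ± 0.75, edgeR, unadjusted p = 0.0131, adjusted p = 1.00). The 19 tested genes of electron carriers and coenzyme Q synthesis had medians of -0.01, 0.03 and 0.07, and the 18 of the tricarboxylic acid cycle 0.03, 0.07 and -0.08.

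The 22 regulators of mitochondrial genes had medians of -0.09, 0.34 and -0.00, with 15 on the higher side at onset. Esrrb, an oestrogen-related receptor that rods are known to express, gave 0.71 ± 0.22 there (edgeR, unadjusted p = 0.00297, adjusted p = 0.972), and its relative Esrrg gave -0.31 ± 0.20. Tfam, which packages mitochondrial DNA, gave 0.85 ± 0.45 at peak (edgeR, unadjusted p = 0.0665, adjusted p = 1.00). At an unadjusted p under 0.05 the 4 lists (36, 19, 22 and 18 tested genes) had 3 genes before symptoms, 2 at onset and 1 at peak, where all intervals had 1.16%, 4.95% and 3.61%.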

How the data were processed

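The authors' deposited table gives, for each of 16 ATAC-seq libraries, a raw count and an RPKM value per gene interval. Per the submitters' processing notes, cutadapt, HISAT2 and HTSeq were used. Build, annotation, duplicate removal, read shifting and multi-mapping are not given in the sources used here. Each deposited RPKM equals count divided by library total and by the difference of gene span and 2000 bp (largest relative deviation 9.15e-14). Counts were scaled by TMM, filtered by filterByExpr (minimum count 10) and tested with edgeR 4.0.16 in R 4.3.3 by a quasi-likelihood fit over all 16 libraries with a mean per stage, with Benjamini-Hochberg adjustment over 29902 intervals and a threshold of 0.05. DESeq2 1.42.0 and limma 3.58.1 were alternatives. In simulated data for onset against naive on 29902 intervals, 12% of genes changed 2-fold and 73% of genes changed 4-fold were called, with 3 false calls. The 200 changed genes were drawn only from intervals above a floor on the mean count. These shares therefore do not cover the members with low counts. Replicates of a group were checked: the 25 pairs had a chi-square per degree of freedom of 5.53 to 63.9, so none was a repeated deposit.

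Densities are reads per kb counted and per M of nuclear interval reads, for windows of at least 500 bp. Wilson intervals on promoter shares cover the number of windows only. Genes were named by rule: any called member, per complex and comparison with naive the smallest unadjusted p on each side, isoform pairs, c-ring and core subunit genes, the 5 highest and 5 lowest densities, spans under 1000 bp, and the smallest p of related lists. Of the 24 values of related lists 4 are printed, and some of those left out had a smaller p. Ndufs4 and Ndufaf2, among the longest members, and the genes of the head-to-head pairs were added after their values were seen. Members and lists were chosen with earlier results of these data known. The results of 1 member and 1 related gene are not reported here; both stay in the fits and counts.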

Additional observations from a re-analysis of the deposited data

Results flagged for a closer look

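In 111 groups of 4 or 5 library values (named members, complexes and the share of reads), 4 had a library far from the others, and chance alone gives about 1 in 20. Log2 CPM of Atp5c1, the central stalk gamma subunit of the ATP synthase, was 3.17 in presymptomatic replicate 2 and 2.52 to 2.60 in the other 3. Atp5j, a peripheral stalk subunit, was at -0.38 in naive replicate 3 and at 1.42 to 2.15 in the other 4. Ndufaf7, a methyltransferase that acts in complex I assembly, was at 2.23 in peak replicate 1 and at 0.16 to 0.49 in the other 3. Atp5h was at -0.36 in peak replicate 4, with 2 reads, and at -2.67 in the other 3, which had 0 reads. The cause was not tested for any of them.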

How the results depend on the processing

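No member was called in any of the 6 comparisons under any alternative run: DESeq2, limma's voom with quality weights, other scalings, no filter or a stricter one, mitochondrial intervals left out, a receptor share covariate, only the groups compared, each library left out in turn, and both libraries with label numbers out of stage order (16 and 17) left out, the last chosen after seeing the data. The smallest adjusted p of a value named by the rule was 0.528, and of any member 0.123 (voom, onset against presymptomatic). Small medians were not stable. Leaving out a library moved the median at peak against naive between -0.0838 (without peak replicate 1) and 0.149, at onset against presymptomatic between -0.0496 (without onset replicate 3) and 0.235, and at peak against onset between -0.0904 (without peak replicate 1) and 0.206 (without onset replicate 3), where leaving out libraries 16 and 17 gave 0.205. At onset against naive, the median was -0.07 without libraries 16 and 17. At peak against naive it was -0.05 with voom, and before symptoms 0.01 with the olfactory and vomeronasal receptor share as covariate. Of 90 fold changes of named genes against naive, 44 changed sign under at least 1 alternative, and of the 29 among them with the smallest p, 3 did (Sdhc before symptoms, Atp5j at onset, Sdhd at peak). On the authors' RPKM scale, which divides by all reads of a library, the median density was 0.156. With the forward strand alone, the NRF1 share was 8.24%, against 1.88% of all windows, and the ERR share 0% against 0.240%. Replicate numbers were not taken as pairs in the main fit. Correlations ran from -0.34 to 0.37 in 21 same-number pairs (median -0.01, 6 over 0.1). In 74 different-number pairs they ran from -0.34 to 0.34 (median 0.01, 17 over 0.1). With the replicate number as a block, 0 members were called in each comparison, and the medians against naive were -0.03 before symptoms, 0.15 at onset and 0.04 at peak.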
